A study of Mus musculus with 6 samples.

Results

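The major histocompatibility complex (MHC) and antigen processing genes were the 51 symbols, of 30236 in the table, that begin with H2- (without the suffix -ps) or are B2m, Cd74, Ciita, Nlrc5, Tap1, Tap2, Tapbp, Psmb8, Psmb9 or Psmb10. The rule uses symbols and no measured value. Of them 31 belong to class I, 13 to class II and 6 to peptide processing, and H2-Ke6, which encodes a steroid dehydrogenase and no MHC molecule, was kept apart. RNA came from bulk liver tumor tissue of male C57BL/6 mice, with 3 libraries labelled WT and 3 labelled Top1mt -/- (Top1mt-KO). Top1mt encodes the topoisomerase of mitochondria, and the knockout line was kept by heterozygous breeding, so that WT and KO mice were littermates. All mice of both genotypes received the carcinogen diethylnitrosamine (DEN) at postnatal day 14 and then carbon tetrachloride (CCl4), which injures hepatocytes, from 8 weeks of age for 14 weeks, and tumors were taken at 22 weeks. No library of untreated or tumor-free liver was among the samples analysed, so the values describe tumor tissue exposed to both agents. The values are the authors' normalised log2 expression values, by a transform that is not named, and the depth of the libraries is unknown. They behave like a regularized log, in which weak genes are drawn toward their mean. The study describes the 3 tumors of a genotype as independent, the labels do not say whether each came from its own animal, and the p-values measure the spread between these libraries.

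MHC class I molecules pair a heavy chain with beta-2-microglobulin and show peptides cut by the proteasome to CD8+ T cells and NK cells. The peptides reach the endoplasmic reticulum through the TAP transporter, and NLRC5 drives transcription of these genes in most nucleated cells. MHC class II molecules are made mainly by dendritic cells, macrophages and B cells, are guided to endosomes by the invariant chain Cd74, are loaded there with the help of H2-DM under the control of H2-O, and depend on the transactivator CIITA. C57BL/6 mice carry the b haplotype, which makes the class II molecule I-A but no I-E, because the gene for the I-E alpha chain is defective.

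Class I and class II promoters share short elements upstream of the start, among them an X box bound by the RFX complex and a Y box bound by NF-Y, on which CIITA and NLRC5 assemble. The 120 bases before the RefSeq start (build GRCm38.p6) of 5 members are shown because these members carry the comparisons below: H2-Aa and H2-Eb1 for class II, H2-K1 and H2-D1 as the classical class I genes, and H2-Q2 as the class I member with the largest positive difference. Where a gene has several starts, the most downstream was used. The window of H2-D1 lies wholly, and those of H2-K1 and H2-Q2 partly, within the gene positions given below. Each is written in the direction of the gene, and capitals mark TGATGA, letters found in the X box of H2-Eb1, and ATTGG, the core of the Y box, on either strand (TCATCA and CCAAT on the other).
H2-Aa, chr17:34287824-34287943, minus strand: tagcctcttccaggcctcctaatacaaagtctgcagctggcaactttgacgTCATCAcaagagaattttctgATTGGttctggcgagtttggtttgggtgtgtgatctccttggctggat
H2-Eb1, chr17:34305747-34305866, plus strand: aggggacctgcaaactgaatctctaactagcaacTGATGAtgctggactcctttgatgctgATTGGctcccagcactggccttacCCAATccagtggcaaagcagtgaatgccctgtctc
H2-K1, chr17:34000334-34000453, minus strand: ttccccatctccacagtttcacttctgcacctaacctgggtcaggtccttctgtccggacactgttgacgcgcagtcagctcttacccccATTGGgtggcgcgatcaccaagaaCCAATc
H2-D1, chr17:35262974-35263093, plus strand: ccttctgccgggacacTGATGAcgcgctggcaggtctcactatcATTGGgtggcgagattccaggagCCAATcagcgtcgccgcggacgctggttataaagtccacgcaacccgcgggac
H2-Q2, chr17:35342187-35342306, plus strand: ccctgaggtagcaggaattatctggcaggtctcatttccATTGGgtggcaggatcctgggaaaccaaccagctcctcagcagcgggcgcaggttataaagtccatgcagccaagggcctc

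Of the 51 members, 37 had a promoter in the RefSeq table, read from 250 bases before to 50 bases after the start. A gene with several promoters counted if any of them held the letters. ATTGG, searched on both strands, stood in 8 of 8 class II, 20 of 23 class I and 3 of 5 processing genes. It stood in 41.1% of all 27025 genes with a promoter of the same length. TGATGA, also on both strands, followed within 40 bases by ATTGG, stood in 3 of 8 class II genes (H2-Aa, H2-Eb1 and H2-DMb1). This pair stood in 6 of 23 class I genes and in 0 of 5 processing genes, and in 1.25% of all genes with a promoter. The letters were chosen after the sequences were seen, related genes share them by descent, and a match is a description of the window. H2-Aa and H2-Eb1, which hold both elements in this order, and H2-D1, which holds them too, took different places in the comparison of genotypes below.

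The targeted gene was looked at first. Under the WT label Top1mt stood at 7.71, 5.99 and 8.01 on the log2 scale (replicates 1, 2 and 3), and under the KO label at 5.58, 6.41 and 6.32. KO replicates 2 and 3 were above WT replicate 2, which goes against its label, and the log2 fold change of -1.13 (-1.76 with that library left out) had an adjusted p of 0.999 by limma. In KO replicate 1 the transcript Gm42418 took 17.7% of the values summed on the linear scale, against at most 0.387% in the libraries labelled WT. The groups were kept as labelled, every direction below rests on those labels, and values that move by over 1.5 times without KO replicate 1 are given without it for the members whose 6 values are printed below. Alb, the albumin gene of hepatocytes, ran from 20.26 to 21.12, above every MHC member in each library.

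Of the 51 members, 39 passed the filter on low values (a mean log2 value above the lowest 25% of genes) and were tested, 21 of class I, 11 of class II, 6 of processing and H2-Ke6. The other 12 lay between -2.21 and -1.04 in their mean log2 value, at the low end of all values, and in 10 the 6 libraries ranged by less than 0.2. They were the class II pseudogenes H2-Pa and H2-Pb, the class I pseudogene H2-Q3, H2-T3, which is known from thymus and intestine, and H2-M1, H2-M9, H2-M11 and 5 H2-M10 genes, a group known from the vomeronasal organ. H2-Ea-ps, the defective gene of the I-E alpha chain and no member by the rule, also lay at the bottom, between -1.29 and -0.81. In total 46 members lie on chromosome 17 between positions 33915899 and 37483552 of GRCm38, and the others are B2m on chromosome 2, Nlrc5 and Psmb10 on 8, Ciita on 16 and Cd74 on 18.

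Some class I genes were among those with the most abundant RNA in these tumors. Levels of different genes were compared as the linear value (2 to the mean log2 value) per kb of exon, in arbitrary units. They were placed among all tested genes with a length. The length was the union of the exons of all annotated transcripts of a gene, which can exceed that of a single mRNA. B2m, the invariant light chain, stood at the percentile 99.9, H2-Q10, a class Ib protein that the liver secretes, at 99.7, and the classical heavy chains H2-K1 and H2-D1 at 99.5 and 99.2. H2-T23, which encodes Qa-1, the ligand of an inhibitory NK receptor, followed at 98.1. Per kb, B2m lay above the others of this top group in each library. The linear values of H2-K1 and H2-D1 were closer, at 4537 and 3189 per kb from their mean log2 values. The lead of B2m over H2-Q10 rests on the exon lengths used, 860 and 4348 bases. Before division by length, the mean log2 values of H2-Q10 were 14.83 in WT and 15.08 in KO. Those of B2m were lower, at 14.33 and 14.49.

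The class II genes stood lower than this top group. Cd74 reached the percentile 96.9, H2-Eb1 90.9, H2-Aa 88.7 and H2-Ab1 88.2. Per kb, H2-Eb1 lay above H2-Aa and H2-Ab1 in each library, while the ranges of all 3 over the libraries overlapped. The order of H2-Aa and H2-Ab1 per kb changed between libraries. That of H2-Eb1 and H2-Aa rests on the exon lengths used, 1944 and 3798 bases. Before division by length, H2-Aa was higher than H2-Eb1 in each library. The accessory chains lay well below: H2-DMb1 at 64.1, H2-DMa at 48.5, H2-Ob at 32.4 and H2-Oa at 27.2, and the transactivator Ciita at 43.5. In the processing group Tapbp, the tapasin that bridges TAP and the heavy chain, was highest at 94.2, and the immunoproteasome subunits Psmb10, Psmb8 and Psmb9 stood at 90.0, 79.7 and 70.4. The plot of level per kb shows that the spread over the 6 libraries was small beside the distance between the top and the bottom of the list.

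**Figure D1:**
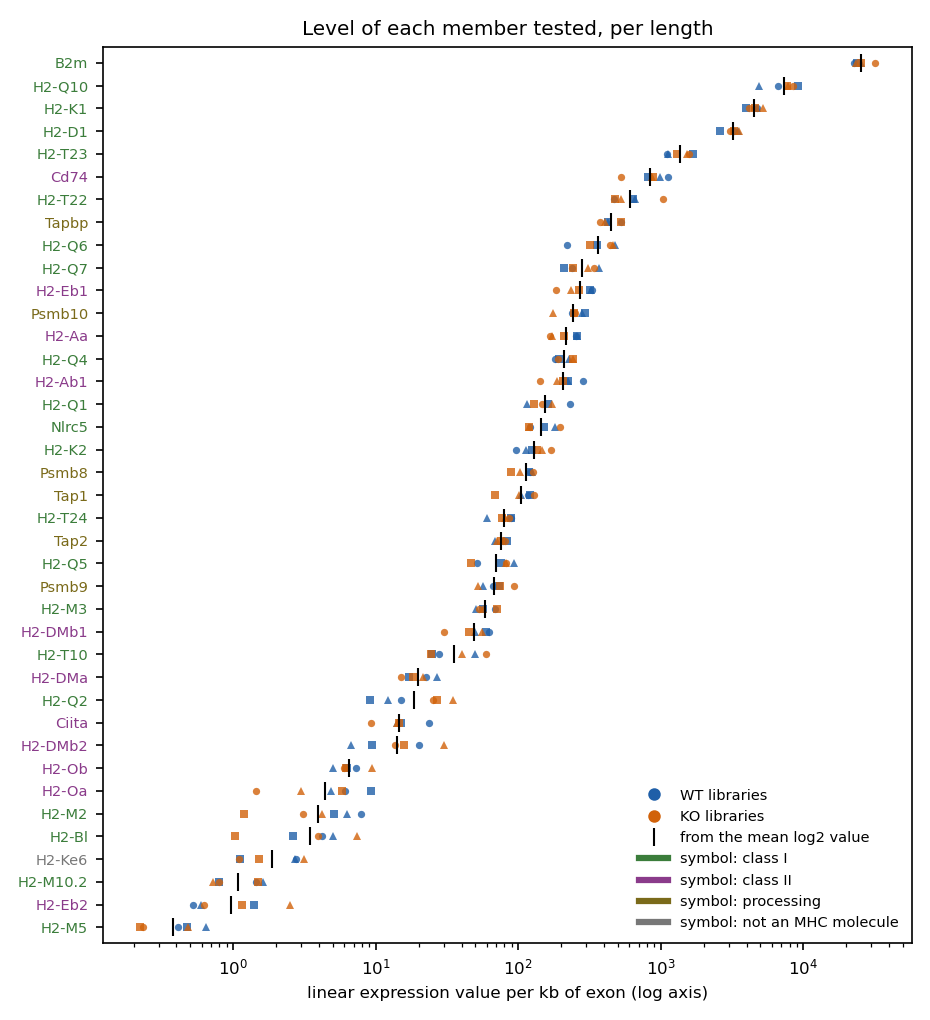
Linear expression value per kb of exon (log axis, arbitrary units) for the 39 members tested, with each WT library in blue, each Top1mt-KO library in orange and a black tick at the level from the mean log2 value. B2m lies at the top (percentile 99.9 among all genes tested), Cd74 is the highest class II member (96.9), and H2-M5 lies at the bottom (5.10).

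Between genotypes, KO was above WT in 18 of the 39 tested members and below it in 21, and the median log2 fold change was -0.059, beside -0.015 over all 22677 genes tested. None of the 39 had an adjusted p under 0.05 by limma, as with the 0% called of all genes tested, and the smallest adjusted p among the members was 0.987. At an unadjusted p under 0.05 by limma there were 6 members (15.4%), 2 higher and 4 lower in KO, and this count fell to 3 when KO replicate 1 was left out, and also when WT replicate 3 was. Over all genes tested the shares at this level were 4.34% in all, 1.79% higher and 2.56% lower. The groups did not overlap in the same 6 members, 2 higher and 4 lower, beside 8.28% of all genes tested, 3.95% higher and 4.33% lower. The members are no independent draws, since neighbouring class II genes share their regulator and their cell types, and class I copies share sequence. These shares thus describe the list and carry no test. The differences by subgroup are drawn in the plot of fold changes.

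**Figure D2:**
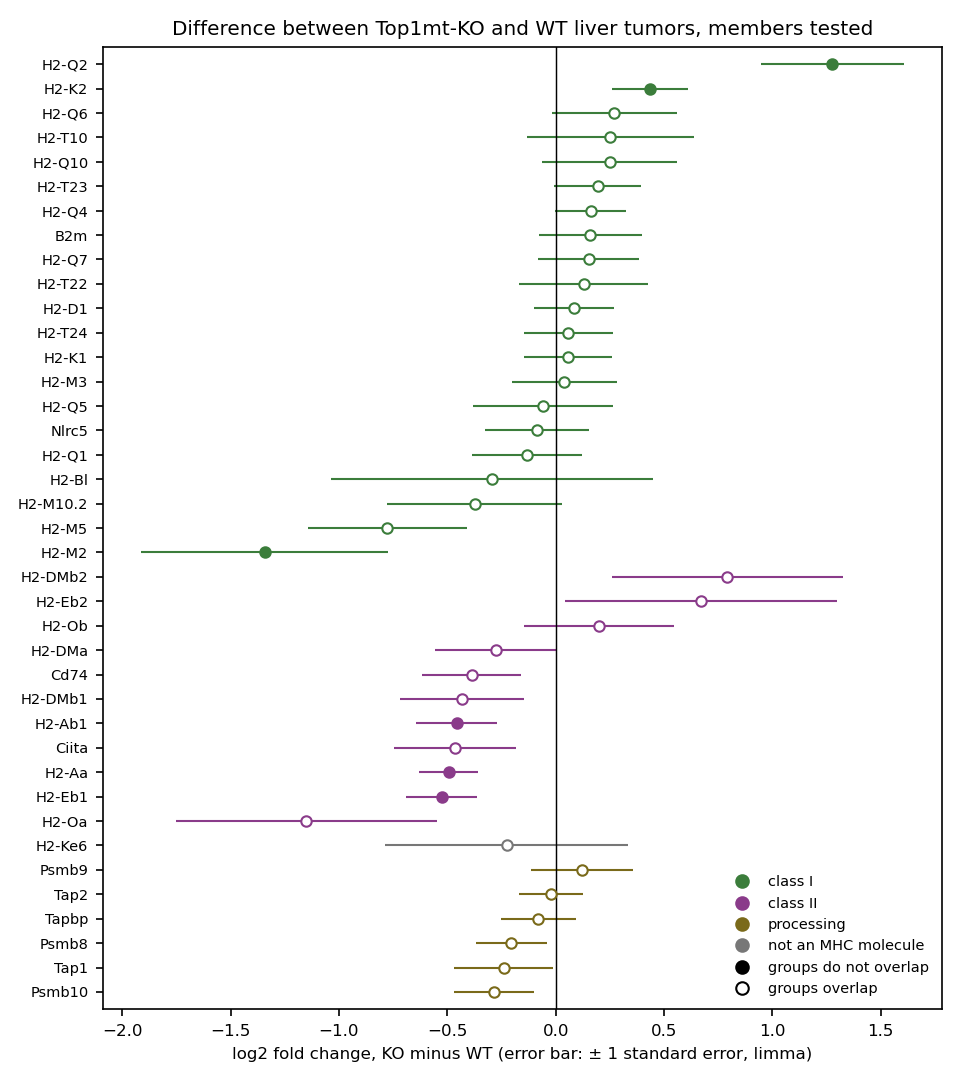
Log2 fold change (KO minus WT) of the 39 members tested, with bars of 1 standard error from limma and colours for the subgroups. Filled points mark the 6 members whose groups do not overlap: H2-Q2 (1.28) and H2-K2 (0.44) to the right, and H2-M2 (-1.34), H2-Eb1 (-0.53), H2-Aa (-0.49) and H2-Ab1 (-0.46) to the left.

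The 3 chains of the class II molecules that C57BL/6 mice transcribe at a high level were lower in every library labelled KO than in every library labelled WT. H2-Aa (chr17:34282744-34287823, minus strand), the alpha chain of I-A, had log2 values of 9.92, 9.93 and 9.94 in WT replicates 1, 2 and 3 and of 9.31, 9.64 and 9.36 in KO. The WT libraries lay within 0.016 of each other, and the highest KO library was 0.28 below the lowest of them. The log2 fold change was -0.49 (standard error 0.14), with an unadjusted p of 0.0067 and an adjusted p of 0.987 by limma, and it ran from -0.60 to -0.43 when single libraries were left out.

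H2-Ab1 (chr17:34257689-34269419, plus strand), the beta chain of I-A, had log2 values of 9.52, 9.16 and 9.16 in WT and of 8.51, 9.04 and 8.92 in KO. Its groups were apart by a narrow margin, KO replicate 2 lying 0.11 under the lowest WT library. The log2 fold change was -0.46 (standard error 0.19), with an unadjusted p of 0.040 and an adjusted p of 0.999 by limma. Without KO replicate 1 it was -0.30, with an unadjusted p of 0.114 by limma.

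H2-Eb1 (chr17:34305867-34316674, plus strand), the beta chain of I-E, is transcribed in C57BL/6 mice although its partner chain is missing. Its log2 values were 9.33, 9.26 and 9.30 in WT and 8.48, 9.01 and 8.82 in KO. As with H2-Aa, the WT libraries were close together and KO replicate 1 was lowest. The log2 fold change was -0.53 (standard error 0.16), with an unadjusted p of 0.012 and an adjusted p of 0.999 by limma, and it was -0.38 without KO replicate 1. For all 3 chains the 100-base windows of their transcripts shared 0% with transcripts of other genes, so reads can be assigned to them.

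Cd74, the invariant chain, and Ciita, the class II transactivator, were lower on average with groups that overlapped. Cd74 had log2 values of 10.88, 10.40 and 10.69 in WT and of 9.79, 10.52 and 10.51 in KO, a log2 fold change of -0.39 (standard error 0.23, adjusted p 0.999 by limma). The difference was carried by KO replicate 1, without which the log2 fold change was -0.14. Ciita had log2 values of 7.81, 7.16 and 7.07 in WT and of 6.46, 7.11 and 7.08 in KO, a log2 fold change of -0.46 (standard error 0.28, adjusted p 0.999 by limma). Here WT replicate 1 was high and KO replicate 1 low, while the other 4 libraries lay between 7.07 and 7.16, and the log2 fold change was -0.23 without WT replicate 1 and -0.25 without KO replicate 1.

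The chains that load and edit peptides differed in sign. H2-DMa, with H2-DMb the exchange catalyst, had values of 6.28, 5.89 and 6.53 in WT and 5.69, 5.98 and 6.21 in KO (log2 fold change -0.28). H2-DMb1 had values of 6.72, 6.64 and 6.39 in WT and 5.65, 6.25 and 6.54 in KO (log2 fold change -0.43), and H2-DMb2 values of 5.13, 4.03 and 3.54 in WT and 4.57, 4.79 and 5.73 in KO (log2 fold change 0.79). The opposite signs of the H2-DMb copies are uncertain, since 11.3% of the windows of H2-DMb1 and 10.3% of those of H2-DMb2 also occur in transcripts of another gene, chiefly in each other. The groups overlapped for all 3, and without KO replicate 1 the log2 fold changes were -0.14 for H2-DMa and -0.19 for H2-DMb1. That of H2-DMb2 ran from 0.44 to 1.24 when single libraries were left out.

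H2-Oa and H2-Ob form the inhibitor of H2-DM, typical of B cells. H2-Oa had values of 3.11, 3.71 and 2.77 in WT and 1.03, 3.02 and 2.08 in KO, the largest negative difference of class II (log2 fold change -1.15, standard error 0.60), and H2-Ob 5.29, 5.07 and 4.75 in WT and 5.01, 5.05 and 5.65 in KO (log2 fold change 0.20, standard error 0.35). The value of H2-Oa was -0.64 without KO replicate 1 and that of H2-Ob 0.31. Both overlapped between the groups, the signs were opposite, and H2-Oa lies low on the scale, where a regularized log would draw values toward their mean. H2-Eb2, a weakly transcribed neighbour of H2-Eb1, had values of 0.83, 2.26 and 1.02 in WT and 1.07, 1.97 and 3.08 in KO (log2 fold change 0.67, from 0.15 without KO replicate 3 to 1.15 without KO replicate 1). These and the DM chains all had an adjusted p of 0.999 by limma.

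In class II as a whole, 3 of the 11 tested members were higher and 8 were lower in KO, and the median log2 fold change was -0.43, beside -0.015 over all genes tested. The groups did not overlap in 3 members (27.3%), all lower, beside 8.28% of all genes tested in either direction and 4.33% lower. KO replicate 1 was the lowest of the 6 libraries for 8 of the 11 class II members, and for 0 of the 21 tested class I members, and it is also the library with the excess of Gm42418. Without it the class II median was -0.19, and without it and WT replicate 2 together it was -0.31. Summed on the linear scale the 13 class II members ran from 3887 to 4729 in WT and from 2488 to 3666 in KO, and the groups did not overlap. In bulk tissue, fewer cells of a type and less RNA per cell cannot be told apart.

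**Figure D3:**
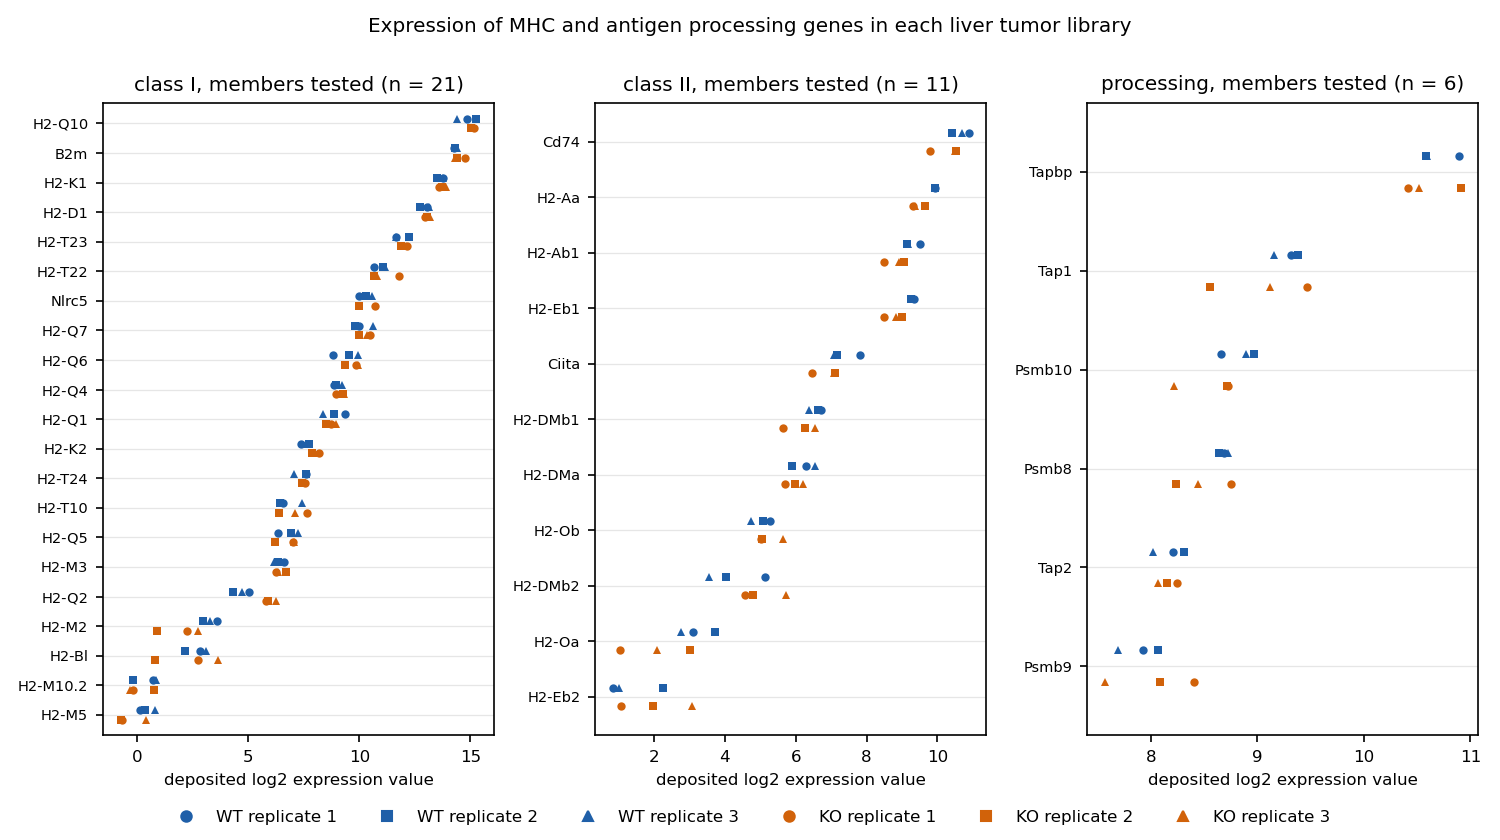
Deposited log2 expression values of the tested members in each library (circle, square and triangle for replicates 1, 2 and 3, blue for WT and orange for KO), in 3 panels with separate axes. For H2-Aa the 3 WT points coincide near 9.93 and the KO points lie from 9.31 to 9.64, while for H2-K1 and H2-D1 the points of both groups mix.

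The markers of cells that make class II were set beside these values. Ptprc (CD45), present on all leukocytes, had log2 values of 9.39, 9.07 and 9.70 in WT and 9.18, 9.25 and 9.41 in KO, a log2 fold change of -0.11 with groups that overlapped. Among 10 macrophage and Kupffer cell markers, KO was higher for 5 and lower for 5 (median 0.015), and their sum on the linear scale ran from 7577 to 16000 in WT and from 7257 to 10507 in KO. Of 8 dendritic cell markers 2 were higher and 6 lower (median -0.19), with sums of 479 to 577 in WT and 405 to 581 in KO. Of 8 B cell markers 5 were higher and 3 lower (median 0.19), with sums of 179 to 235 in WT and 151 to 417 in KO. No marker of these 3 lists had groups that did not overlap. KO replicate 1 had the lowest sum of the 6 libraries in each of the 3 lists, as it did for class II.

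Taken relative to Ptprc in the same library, H2-Aa stood at 0.53, 0.86 and 0.24 in WT and at 0.13, 0.39 and -0.044 in KO on the log2 scale. The groups overlapped on this scale, with a difference of -0.39. The same held for H2-Ab1 (-0.35), H2-Eb1 (-0.42) and Cd74 (-0.28), and relative to Csf1r, the receptor that marks macrophages, the differences were -0.32, -0.28, -0.35 and -0.21 for H2-Aa, H2-Ab1, H2-Eb1 and Cd74, again with overlap in each. The direction was thus lower in KO on each scale, and the part of leukocyte content in it was not tested.

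Markers of other cell types moved more than those of leukocytes in places. Of 7 bile duct markers 5 were lower in KO (median log2 fold change -1.19), 2 of them without overlap. These 2 are 28.6% of the list, beside 8.28% of all genes tested in either direction and 4.33% lower. Krt19, a keratin of bile duct cells, had values of 6.11, 4.75 and 6.93 in WT and of 2.86, 4.38 and 2.50 in KO, and Epcam was the other. Their sum, set by Spp1, ran from 3100 to 6311 in WT and from 3339 to 6132 in KO. Of 7 stellate cell and myofibroblast markers 6 were lower (median -0.40, 0 without overlap), with sums of 7743 to 19569 in WT and 4379 to 15012 in KO and the lowest in KO replicate 1. Of 7 endothelial markers 5 were higher (median 0.048, 2 without overlap), with sums of 6814 to 8197 in WT and 7398 to 9068 in KO, and of 10 hepatocyte markers 4 were higher and 6 lower (median -0.036, 1 without overlap), with sums from 1925400 to 3087320 in WT and from 2260190 to 3308190 in KO. The 12 T cell and NK cell markers were low in every library, 6 higher and 6 lower (median -0.0046, 1 without overlap in each direction), with sums of 83.1 to 141 in WT and 109 to 152 in KO. Markers without overlap made up 28.6% of the endothelial, 10% of the hepatocyte and 16.7% of the T cell and NK cell list. The share over all genes tested was 8.28%. The part of cell composition in the class II values was not tested.

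**Figure D4:**
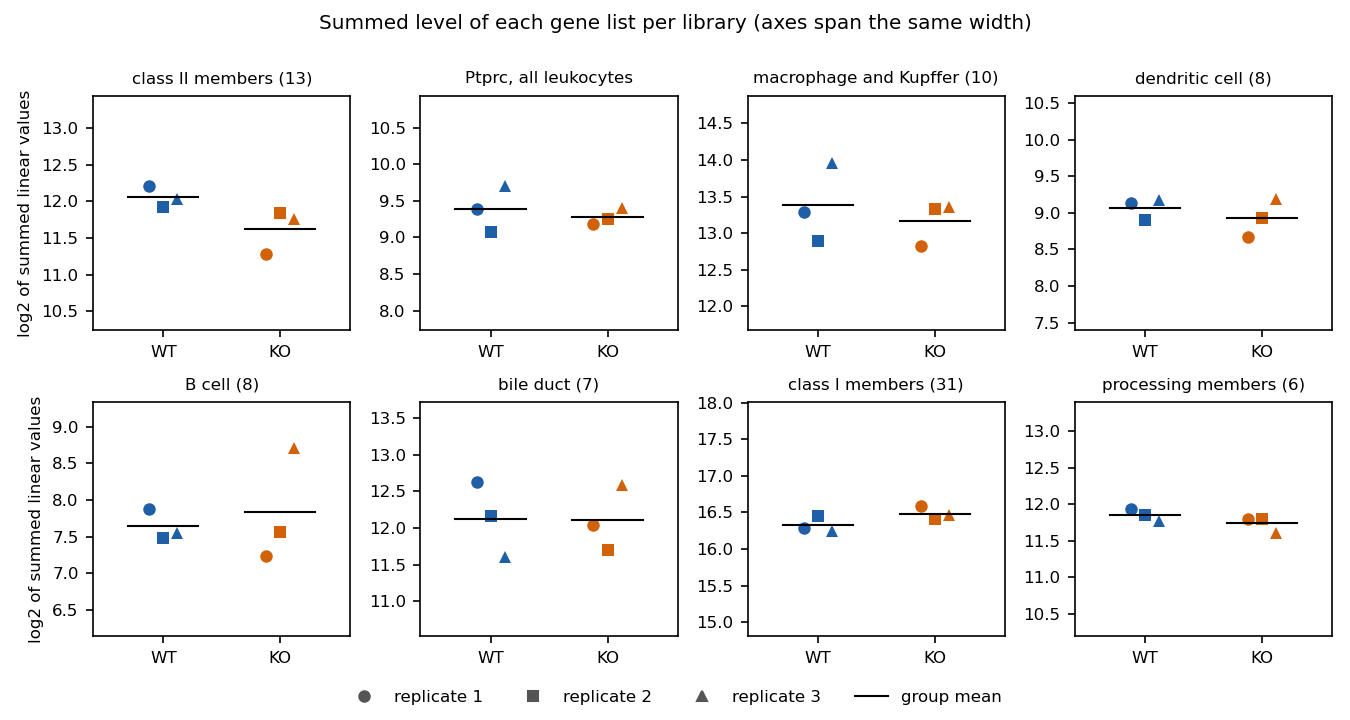
Log2 of the summed linear values of each gene list in each library, WT in blue and KO in orange, with replicates 1, 2 and 3 as circle, square and triangle and a line at the group mean. All panels span the same width on the vertical axis. In class II the KO points (11.28 to 11.84) lie below the WT points (11.92 to 12.21), and in the marker lists shown the groups overlap.

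The classical class I genes did not separate the genotypes, and their differences were small beside the spread of the libraries. H2-K1 (chr17:33996017-34000347, minus strand) had log2 values of 13.76, 13.50 and 13.77 in WT and 13.57, 13.72 and 13.91 in KO, and a log2 fold change of 0.057 (standard error 0.20). H2-D1 (chr17:35262730-35267499, plus strand) had 13.05, 12.71 and 13.13 in WT and 12.95, 13.04 and 13.16 in KO, and a log2 fold change of 0.084 (standard error 0.18). B2m (chr2:122147686-122153083, plus strand) had 14.25, 14.31 and 14.42 in WT and 14.74, 14.41 and 14.31 in KO, and a log2 fold change of 0.16 (standard error 0.24). The groups overlapped in all 3, the signs for H2-K1 and H2-D1 turned when single libraries were left out, and the 95% intervals of the log2 fold changes by limma were -0.41 to 0.52 for H2-K1, -0.34 to 0.51 for H2-D1 and -0.39 to 0.71 for B2m. Without KO replicate 1 the log2 fold changes were 0.14, 0.14 and 0.031.

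Nlrc5, the class I transactivator, had log2 values of 10.004, 10.318 and 10.591 in WT and of 10.705, 9.971 and 9.978 in KO. Its groups overlapped, KO replicate 1 was the highest library of all, and the log2 fold change of -0.086 (standard error 0.24) turned to 0.057 without WT replicate 3 and was -0.33 without KO replicate 1. In KO replicate 1 the transactivators thus lay at opposite ends, Nlrc5 highest and Ciita lowest of the 6 libraries. Further class I genes, named as examples, had groups that overlapped. The log2 fold changes were 0.25 for H2-Q10, 0.19 for H2-T23, 0.13 for H2-T22, a ligand of some gamma delta T cells, 0.15 for H2-Q7, a source of Qa-2, and 0.041 for H2-M3, which presents formylated peptides, among them peptides made in mitochondria.

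The 3 class I members without overlap lay below the classical chains in level per kb, at the percentiles 81.7 for H2-K2, 47.3 for H2-Q2 and 25.9 for H2-M2. H2-Q2 (chr17:35342242-35346762, plus strand) had log2 values of 5.04, 4.31 and 4.73 in WT and 5.78, 5.87 and 6.24 in KO, the largest positive difference of the members. The lowest KO library was 0.74 above the highest WT library. The log2 fold change was 1.28 (standard error 0.33), with an unadjusted p of 0.0050 and an adjusted p of 0.987 by limma, and it ran from 1.08 to 1.45 when single libraries were left out. Of the 100-base windows of H2-Q2, 5.09% also occur in transcripts of H2-Q1, whose own log2 fold change was -0.13.

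H2-K2 (chr17:33974659-33978827, minus strand), a transcribed pseudogene beside H2-K1, had log2 values of 7.37, 7.74 and 7.60 in WT and 8.17, 7.86 and 7.98 in KO. The groups were apart by 0.12, and the log2 fold change was 0.44 (standard error 0.17), with an unadjusted p of 0.037 and an adjusted p of 0.999 by limma. It ran from 0.34 to 0.52 when single libraries were left out. The unadjusted p by limma was 0.119 without WT replicate 1 and 0.0997 without KO replicate 1. H2-M2 (chr17:37480851-37483552, minus strand) had values of 3.61, 2.98 and 3.29 in WT and 2.25, 0.89 and 2.71 in KO. All KO libraries lay below the WT libraries, with KO replicate 2 far below the others, and the log2 fold change of -1.34 (standard error 0.57, adjusted p 0.999 by limma) was -0.81 without that library. H2-M5, next in size, had values of 0.13, 0.34 and 0.80 in WT and -0.68, -0.75 and 0.37 in KO (log2 fold change -0.78), close to the bottom of the scale and with overlap.

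In class I as a whole, 14 of the 21 tested members were higher and 7 were lower in KO. The median log2 fold change was 0.084, beside -0.015 over all genes tested. The groups did not overlap in 3 members (14.3%), 2 higher and 1 lower. Over all genes tested they did not overlap in 8.28%, 3.95% higher and 4.33% lower. Near-identical copies limit what can be said of single genes. Windows shared with other genes made up 14.0% for H2-Q5, 11.98% for H2-Q7 and 10.8% for H2-Q6, chiefly among the Q genes themselves, and the values of these genes are uncertain because reads that map to several places were left out by the authors. H2-Ke6 shared 61.6% of its windows with an overlapping gene model. Reads from that stretch fit both models, so its log2 fold change of -0.23 (standard error 0.56) is uncertain. Of the 39 tested members, 21 shared 0 windows.

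Along chromosome 17 the 3 class II chains without overlap are neighbours within the class II region, between H2-Ob and H2-Eb2. H2-Ob and H2-Eb2 had positive log2 fold changes (0.20 and 0.67) with groups that overlapped. H2-K2 lies beside H2-K1, which differed by only 0.057, and H2-Q2 lies beside H2-Q1. The map of differences along the complex shows these positions.

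**Figure D5:**
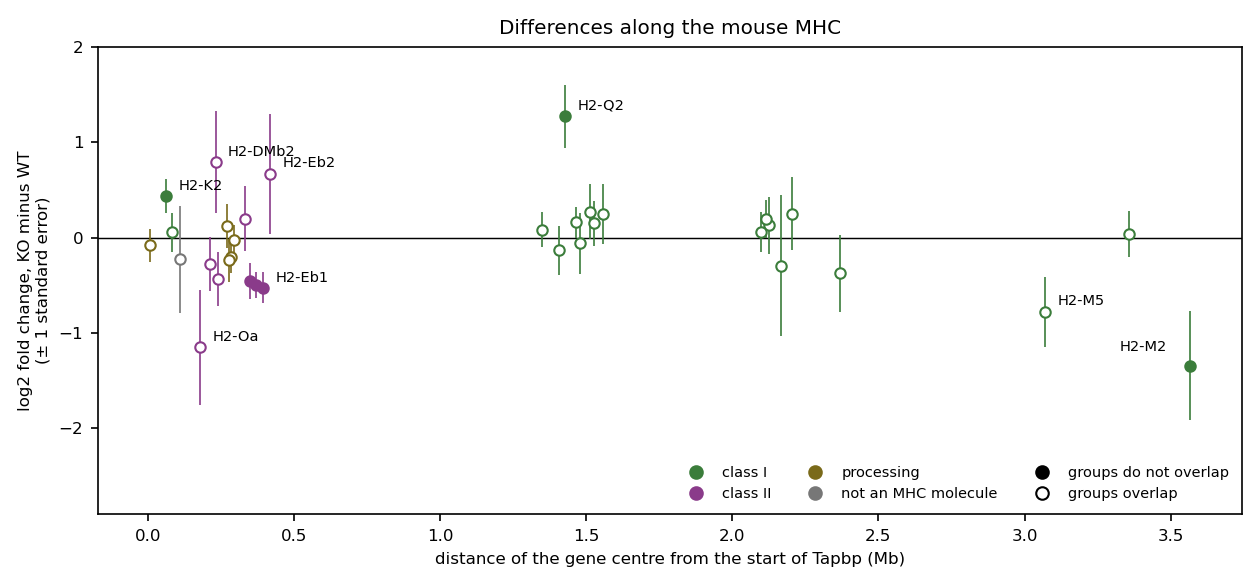
Log2 fold change (KO minus WT) with bars of 1 standard error, plotted against the distance of each gene's centre from the start of Tapbp in Mb, for tested members on chromosome 17. Filled points mark groups without overlap. The filled class II points lie together near 0.4 Mb, the filled class I points (H2-K2, H2-Q2 and H2-M2) lie apart from each other.

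None of the 6 processing genes separated the genotypes. Tap1, a subunit of the peptide transporter, had values of 9.32, 9.38 and 9.16 in WT and 9.47, 8.55 and 9.12 in KO (log2 fold change -0.24, standard error 0.23), and Tap2, its partner, 8.21, 8.31 and 8.02 in WT and 8.25, 8.15 and 8.07 in KO (log2 fold change -0.022, standard error 0.15). KO replicate 2 alone was low for Tap1, and without it the log2 fold change was 0.0078, while without KO replicate 1 it was -0.45 for Tap1 and -0.066 for Tap2. Tapbp had a log2 fold change of -0.081 (standard error 0.17), and leaving out KO replicate 1 turned it to 0.021. Of the 6 members 1 was higher and 5 were lower in KO, the median log2 fold change was -0.14, 0 had groups without overlap, and all had an adjusted p of 0.999 by limma.

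The inducible subunits Psmb8, Psmb9 and Psmb10 replace Psmb5, Psmb6 and Psmb7 in the immunoproteasome, and their log2 fold changes were -0.20, 0.12 and -0.29, against -0.073, -0.037 and -0.12 for the constitutive subunits. Psmb9 ran from 7.69 to 8.07 in WT and from 7.57 to 8.41 in KO, and Psmb8 from 8.64 to 8.72 in WT and from 8.24 to 8.75 in KO. Without KO replicate 1, which was highest for both, the log2 fold changes were -0.072 for Psmb9 and -0.34 for Psmb8. The difference inducible minus constitutive within a library cancels the scale of that library. KO minus WT, this difference was -0.13 for Psmb8 and Psmb5 (exact two-sided permutation test, p = 0.5), 0.16 for Psmb9 and Psmb6 (exact two-sided permutation test, p = 0.5) and -0.17 for Psmb10 and Psmb7 (exact two-sided permutation test, p = 0.4). Adjusted over the 3 pairs by Benjamini-Hochberg each exact p was 0.5, and with 3 against 3 libraries no exact p can be below 0.1.

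The remaining genes of these pathways were read from lists. Of 11 partners in class I loading and the proteasome, which include calreticulin, Erap1 and the activator subunits Psme1, Psme2 and Psme3, KO was above WT in 2 and below it in 9, the median log2 fold change was -0.038, and 0 were without overlap. Of 5 class I-like genes outside the H2 complex (Mr1, Cd1d1, Cd1d2, Hfe and Fcgrt) 4 were higher and 1 lower, with a median of 0.076 and 0 without overlap. All adjusted p in the pathway lists were 0.999 by limma.

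Of 12 genes of class II proteases, regulators and costimulation, 7 were higher and 5 lower, with a median of 0.024. An unadjusted p under 0.05 by limma was reached by 2 (16.7%), beside 4.34% of all genes tested. The groups did not overlap in 1 (8.33%), near the 8.28% of all genes tested. Cd86, a costimulatory ligand of antigen presenting cells, was the member without overlap, with 5.61, 5.50 and 6.24 in WT and 6.58, 6.71 and 6.82 in KO (log2 fold change 0.92, standard error 0.27). It was thus higher in all 3 libraries labelled KO, while H2-Aa, H2-Ab1 and H2-Eb1 were lower in all 3. Cd40, another costimulatory receptor, picked after its values were seen, differed by -1.39 on the log2 scale, and its groups overlapped. The RFX subunits Rfx5, Rfxap and Rfxank, which hold CIITA and NLRC5 at the X box, had log2 fold changes of 0.17, 0.43 and 0.59, and Ctss, which trims the invariant chain, of -0.45, all with overlap.

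Interferon gamma induces both classes, in part through Irf1, CIITA and NLRC5. Of 19 genes of this axis 11 lay higher and 8 lower in KO, and the median was 0.055. The groups did not overlap in 1 of them (5.26%), below the 8.28% of all genes tested. Ifng itself lay between -0.19 and 0.03 in every library, near the bottom of the scale. Irf1 had a log2 fold change of 0.064, with overlap between the groups. Irf8, a factor of dendritic cells and macrophages, was the gene without overlap, with 8.35, 8.21 and 8.23 in WT and 8.05, 8.09 and 8.01 in KO (log2 fold change -0.21, standard error 0.14). Gbp2, picked after its values were seen, had values of 7.78, 7.14 and 6.85 in WT and 5.84, 6.70 and 6.86 in KO, with KO replicate 1 lowest as for class II, and Iigp1, abundant in these tumors, had a log2 fold change of -0.028.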

How the data were processed

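The table deposited by the authors gives log2 values by gene symbol for 6 libraries (3 WT, 3 Top1mt-KO) prepared with a stranded kit. The study's methods name Trimmomatic, BWA, a mouse genome called Mm 8, uniquely mapped reads, featureCounts and DESeq2, whereas the submitters' processing notes name bcl2fastq 2.17, Trimmomatic 0.36, STAR 2.5.1, Subread, DESeq2 and GRCm38, and the difference was not resolved here. The log2 transform and the strand setting of the counting are not given in the sources used here. The values behave like a regularized log, which draws weak genes toward their mean and understates their differences. They hold no counts, so depth is unknown and no count model was used. The 3 columns without a name were left out, and other columns of per-sample values numbered 0.

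Libraries labelled KO and WT were compared by limma 3.58.1 under R 4.3.3 (lmFit, eBayes with trend) over the 22677 genes with a mean above the lowest 25%, with Benjamini-Hochberg adjustment over all of them, no covariate and a threshold of 0.05. The procedure was tested on simulated data. Subgroups are described by counts and medians. Members and gene lists were chosen with earlier results of these data known. Genes named are the main chains and processing genes of each class, the 3 largest differences in class I and in class II, every member without overlap or with an unadjusted p under 0.05, pathway genes without overlap, Psmb5, Psmb6, Psmb7 and Top1mt, and others as examples of their list, picked after their values were seen. Positions, exon lengths and the search for shared windows (100 bases, transcripts of different genes) used GENCODE M21 on GRCm38, in which 29966 of 30236 symbols (99.1%) were found, and promoters are RefSeq's on GRCm38.p6. Alternatives were limma without trend, quantile normalization, no filter, a filter at the median, the replicate block and each library left out in turn. Tables and plots were made with pandas 2.3.3, scipy 1.17.1 and matplotlib 3.10.9.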

Additional observations from a re-analysis of the deposited data

How the results depend on the processing

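Among the members 0 passed an adjusted p of 0.05 by limma under every alternative tried. Over all genes tested 4 passed with no filter on low values, and from 0 to 1 when single libraries were left out, the 1 without KO replicate 1. The count of members with an unadjusted p under 0.05 was 6 and ran from 3 to 6 when single libraries were left out, with 3 without KO replicate 1 and 3 without WT replicate 3. With single libraries left out the medians ran from 0.024 to 0.20 for class I, from -0.51 to -0.19 for class II and from -0.21 to -0.052 for processing, so that the class II median lay more than 1.5 times nearer to 0 without KO replicate 1. The alternative that left out WT replicate 2 and KO replicate 1 together was chosen after seeing the data. It gave 4 members at an unadjusted p under 0.05 and medians of 0.0096, -0.31 and -0.17 for class I, class II and processing. With the replicate number as a block 0 genes passed and 5 members had an unadjusted p under 0.05. Deviations from the group mean correlated at -0.123, -0.0759 and 0.0520 between libraries of the same number, and 2 of 6 libraries correlated best with their own number, so the block is no pairing by design.

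Of 30 named genes other than Top1mt, 9 changed sign under at least 1 alternative. With single libraries left out their log2 fold changes ran from -0.031 to 0.14 for H2-K1, -0.042 to 0.17 for H2-D1, -0.33 to 0.057 for Nlrc5, -0.0089 to 0.33 for H2-Ob, -0.45 to 0.0078 for Tap1, -0.10 to 0.042 for Tap2, -0.23 to 0.022 for Tapbp, -0.072 to 0.35 for Psmb9 and -0.091 to 0.024 for Psmb6. The cause was not tested. H2-Aa, H2-Ab1, H2-Eb1, Cd74 and H2-Q2 kept their sign under each alternative, and the smallest adjusted p by limma was 0.611 among these 30 genes and 0.604 for Top1mt. The depth of the libraries is unknown, so it cannot be said how much of the spread of weakly expressed members is counting error.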
